A study of Mus musculus with 12 samples.

Results

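The 10 genes described here encode the 3 enzymes that make serine from a glycolytic intermediate (Phgdh, Psat1 and Psph) and 7 enzymes that move single-carbon units from serine or glycine through folate (Shmt1, Shmt2, Mthfd1, Mthfd1l, Mthfd2, Aldh1l2 and Gldc). They were chosen by symbol from knowledge of the pathway, with earlier results of these data known, and all 10 were found among the 54232 genes of the count files. RNA had been sequenced from MMTV-NIC mouse breast cancer cells, which come from mammary tumours of mice that carry an activated Neu (ErbB2) receptor together with Cre recombinase under the mouse mammary tumour virus promoter, so all 4 groups share that oncogene. The groups were AXL WT cells and AXL KO cells, which lack the receptor tyrosine kinase AXL, each at 21% oxygen (normoxia) and at 1% oxygen (hypoxia), with 3 libraries in each group and 12 in all. The duration of hypoxia, the number of knockout clones and the origin of the replicates are not given in the sources used here. Whether replicates were separate cultures is unknown, so p-values here rest on the spread among these libraries alone, and that spread may be technical.

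Cells make serine from the glycolytic intermediate 3-phosphoglycerate by an oxidation (PHGDH), a transamination (PSAT1) and a dephosphorylation (PSPH). Serine hydroxymethyltransferase then splits serine into glycine and a single-carbon unit bound to folate, in mitochondria with SHMT2 and in the cytosol with SHMT1. In mitochondria the unit is oxidised by MTHFD2 and released as formate by MTHFD1L, and in the cytosol MTHFD1 returns formate to folate for the synthesis of purines and thymidylate. ALDH1L2 burns the mitochondrial unit to carbon dioxide with production of NADPH, and GLDC opens the glycine cleavage system. The pathway is known for its high expression in some breast cancers and for induction by the transcription factor ATF4 when amino acids are short.

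Library totals ran from 45297267 to 58775422 counts. Axl itself, the targeted gene, had 47960 to 57291 counts in AXL WT normoxia and 19395 to 28495 in AXL WT hypoxia, against 164 to 200 and 78 to 105 in the matching AXL KO groups. The AXL WT hypoxia libraries stood apart from each other: the biological coefficient of variation within that group was 0.4, against 0.0585 to 0.0895 in the other 3. Of the marker lists, the luminal keratin Krt8 lay between 323 and 875 CPM (counts scaled to a common library size with TMM factors) in all libraries. The epithelial marker Epcam had 20.6 to 24.9 CPM in AXL WT normoxia, 42.5 to 104 in AXL WT hypoxia, 6.1 to 7.64 in normoxic AXL KO and 7.21 to 12.5 in hypoxic AXL KO. Cdh1 had 9.72 to 12.7, 20.4 to 47.4, 5.19 to 6.21 and 3.38 to 5.96 CPM in these groups. Another keratin of that list, Krt7, had 602 to 719 CPM in AXL WT normoxia and 78.9 to 259 in the other groups. Of that list, 3 of 5 tested epithelial markers were lower in AXL KO in normoxia, where 30.0% of all genes tested were lower. The summed fibroblast list of 7 genes was 66.3 to 72.8 CPM in AXL WT normoxia, 72.2 to 96.2 in AXL WT hypoxia, 203 to 224 in normoxic AXL KO and 76.0 to 84.9 in hypoxic AXL KO. Pdgfrb reached 116 to 128 CPM in normoxic AXL KO, but Pdgfra was lower there, at 34.8 to 40.2 CPM against 49.1 to 54.9 in AXL WT normoxia. Lum and Thy1 had no more than 2 counts in any library. Of 5 tested fibroblast markers, 4 were higher in AXL KO in normoxia, where 29.7% of all genes tested were higher. The summed endothelial list of 7 genes was 0.446 to 0.81, 2.87 to 6.35, 3.28 to 4.7 and 16.1 to 17.9 CPM in the same order. Pecam1 had no more than 31 counts in any library, but Kdr had 685 to 779 in hypoxic AXL KO and Erg 89 to 209 in hypoxic AXL WT. The summed adipocyte list of 5 genes was 33.8 to 41.8, 8.55 to 27.9, 8.64 to 13.6 and 4.6 to 4.61 CPM. That sum was nearly all Fabp4, at 33.8 to 41.8, 8.45 to 27.9, 8.64 to 13.6 and 4.53 to 4.61 CPM. The other adipocyte markers, Adipoq, Plin1, Cidec and Lep, had no more than 3 counts in any library. The leukocyte marker Ptprc had at most 5 counts in any library. The summed leukocyte list of 7 genes ran from 10.9 to 12.3 CPM in AXL WT normoxia, 15.2 to 152 in AXL WT hypoxia, 59.6 to 85.3 in AXL KO normoxia and 49.4 to 55.9 in AXL KO hypoxia. Csf1r reached 145 CPM in AXL WT hypoxia and Cd68 85.2 in AXL KO normoxia. The part of these markers in the results below was not tested. In bulk RNA, fewer cells of a type and less RNA per cell cannot be told apart.

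Most of the 10 enzymes were lower without AXL in normoxia and lower in hypoxia than in normoxia, and Mthfd1l rose with hypoxia in both genotypes. Calls were made with edgeR's quasi-likelihood test over 16767 genes, where the Benjamini-Hochberg adjusted p lay under 0.05. In normoxia 8 of 10 were lower in AXL KO than in AXL WT and 0 were higher, where 30.0% of all genes tested were lower, 29.7% higher and 59.7% called in either direction. In hypoxia 5 were lower and 1, Mthfd1, was higher, against 33.0% lower, 29.9% higher and 63.0% called either way among all genes. From normoxia to hypoxia, 6 fell and 2 rose in AXL WT cells (30.7% lower, 29.2% higher and 59.8% either way among all genes), and 7 fell and 2 rose in AXL KO cells (30.6% lower, 27.3% higher and 58.0% either way). The libraries of the groups compared did not overlap in 8 of 10 enzymes between genotypes in normoxia (79.7% of all genes), 8 between genotypes in hypoxia (62.5%), 8 between oxygen levels in AXL WT (61.4%) and 9 in AXL KO (76.0%), shares that for the genotypes in normoxia were near those of all genes. The median log2 difference of the 10 was -1.09 and -0.8 for AXL KO against WT in normoxia and in hypoxia, and -1.43 and -1.22 for hypoxia against normoxia in AXL WT and AXL KO, where the medians over all genes lay between -0.041 and -0.023. The contrasts share groups, so they are not independent of each other. Gldc passed the filter on low counts only through AXL WT libraries, so its place in these counts carries no weight.

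**Figure D1:**
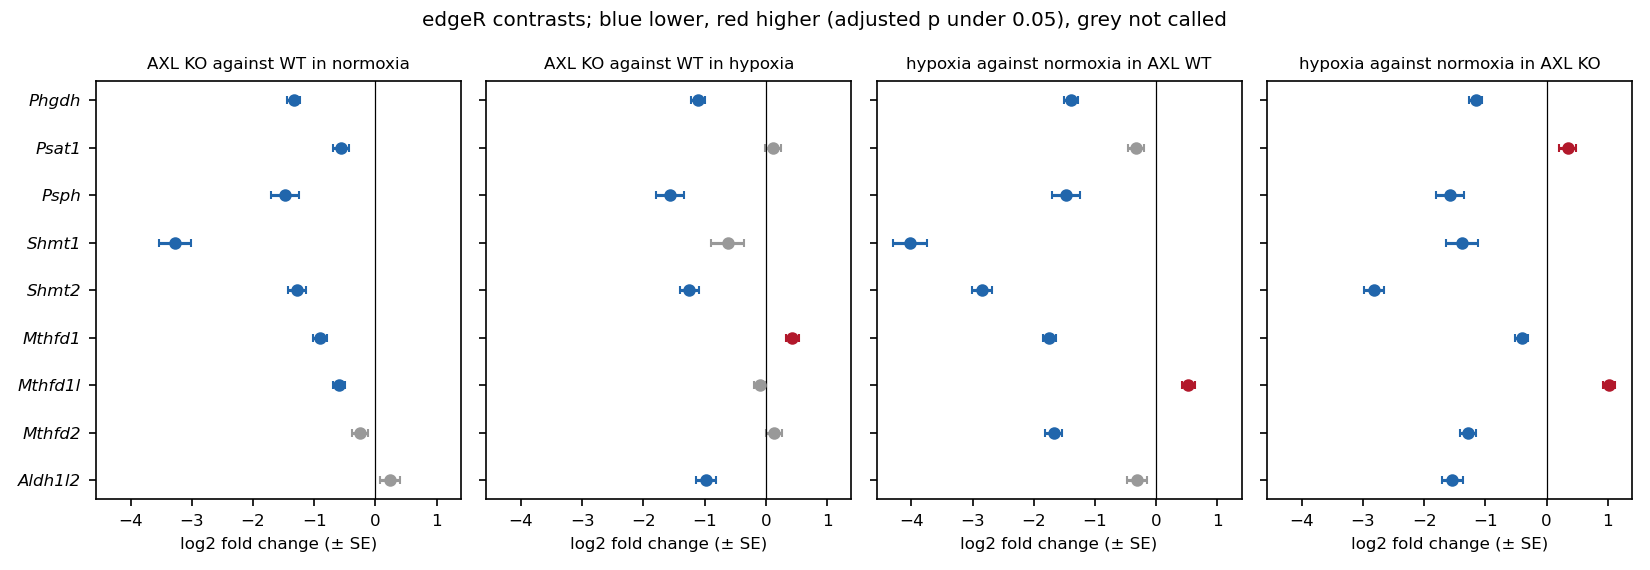
Log2 differences (x axis) of 9 enzymes without Gldc in the 4 contrasts of groups, with standard errors as bars; blue points were called lower and red points higher at an adjusted p under 0.05 in edgeR, and grey points were not called. Points for AXL KO against WT in normoxia lie to the left of 0 except for Aldh1l2 at 0.24, and Mthfd1l lies to the right of 0 in both contrasts of hypoxia with normoxia.

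Levels were compared between genes per length of exon (RPKM, the CPM divided by kilobases of merged exons). In AXL WT normoxia the serine synthesis enzymes and mitochondrial SHMT2 led: Phgdh stood at 227 ± 12.5 RPKM (SD, n = 3), Psat1 at 156 ± 15.6 and Shmt2 at 122 ± 10.7. Aldh1l2 at 41.2 and Mthfd2 at 37.0 overlapped in their libraries, as did Mthfd1l at 27.0 and Psph at 25.6, and below them came Mthfd1 at 16.2, Shmt1 at 10.4 and Gldc at 0.0552 RPKM. In AXL KO hypoxia the order had changed: Psat1 at 135 RPKM was alone at the top, Phgdh at 40.2 and Mthfd1l at 36.3 overlapped behind it, and Shmt2 stood at 7.14. Psat1 was highest in AXL WT hypoxia too, at 124 against 86.7 for Phgdh, and the libraries of both genes overlapped in AXL KO normoxia, at 106 and 89.8 RPKM.

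**Figure D2:**
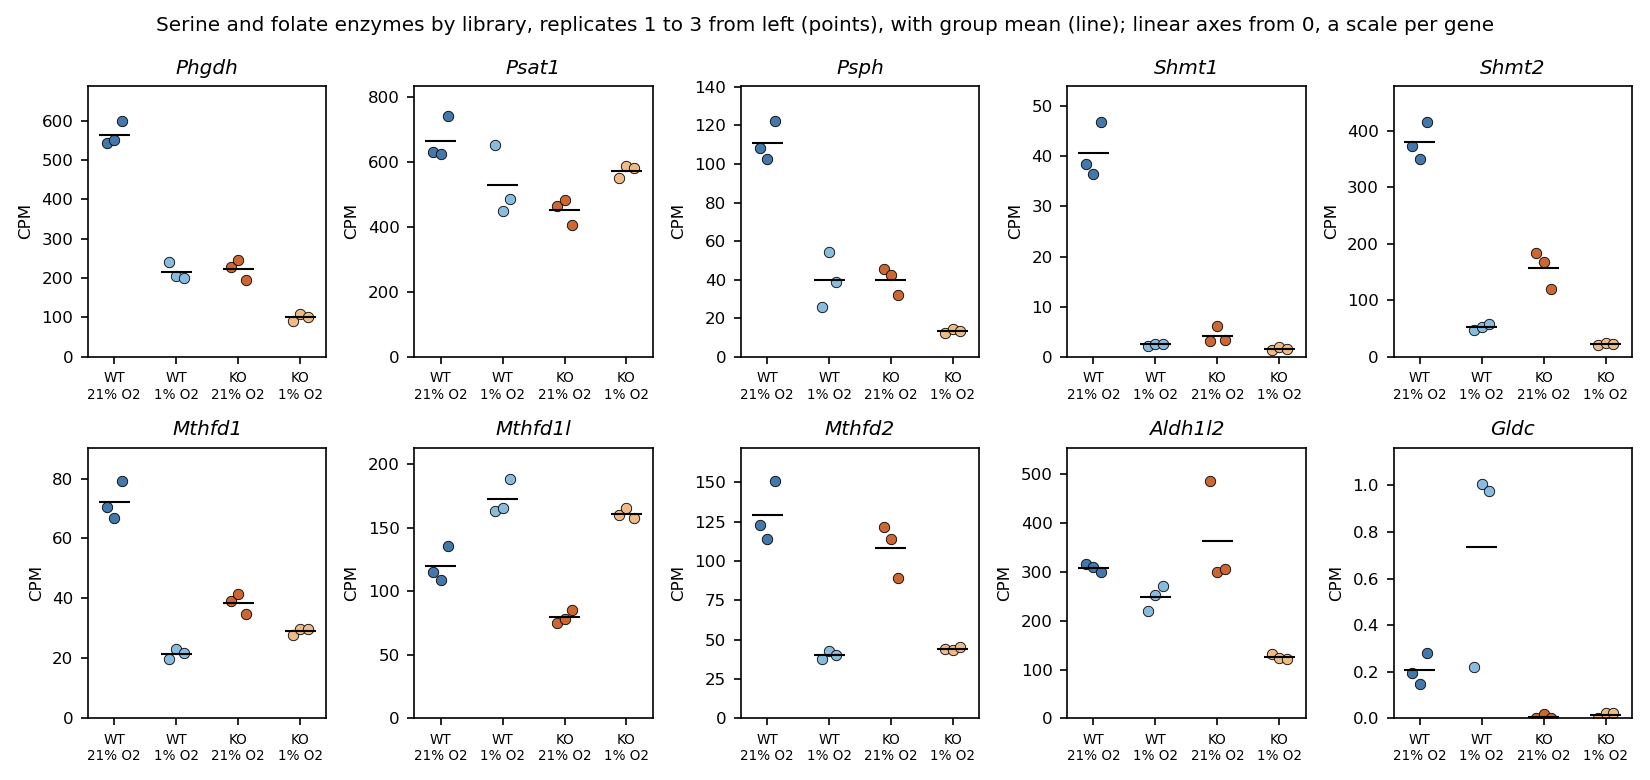
TMM-scaled CPM of each enzyme in the 12 libraries (points, replicates 1 to 3 from left) with the group mean (line), on an axis of its own for each gene. Phgdh, Psph and Shmt2 are highest in all AXL WT normoxia libraries and lowest in all AXL KO hypoxia libraries, whereas Psat1 stays between 406 and 742 CPM in every library.

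Phgdh (chr3:98313170-98339990, minus strand on GRCm38), which encodes the first enzyme of serine synthesis, was lower in each comparison with normoxic AXL WT cells. Its libraries held 542, 549.8 and 599.7 CPM in AXL WT normoxia, 240.0, 205 and 201 in AXL WT hypoxia, 229, 245 and 196 in normoxic AXL KO and 91.1, 108 and 101 in hypoxic AXL KO. All AXL WT normoxia libraries were above, and all AXL KO hypoxia libraries below, those of the other groups, while hypoxic AXL WT and normoxic AXL KO libraries overlapped. Loss of AXL went with a log2 difference of -1.34 ± 0.11 in normoxia (SE; adjusted p = 8.95e-07) and -1.11 ± 0.11 in hypoxia (adjusted p = 5.22e-06). Hypoxia lowered Phgdh by similar steps, -1.39 ± 0.11 in AXL WT (adjusted p = 1.28e-06) and -1.16 ± 0.11 in AXL KO (adjusted p = 6.01e-06), and the interaction, the difference between the 2 hypoxia responses, did not pass (0.23 ± 0.16, adjusted p = 0.295).

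Psph (chr5:129765558-129787449, minus strand), which encodes the last enzyme of the route, had the same order of groups at a lower level. It held 108, 102 and 122 CPM in AXL WT normoxia, 25.8, 54.6 and 39.0 in AXL WT hypoxia, 45.3, 42.4 and 31.9 in normoxic AXL KO and 12.2, 14.4 and 13.6 in hypoxic AXL KO. The AXL WT hypoxia libraries were spread widely and overlapped those of normoxic AXL KO cells. AXL KO was lower by a log2 difference of -1.48 ± 0.23 in normoxia (adjusted p = 1.39e-04), against -1.57 ± 0.23 in hypoxia (adjusted p = 1.07e-04). Hypoxia gave -1.48 ± 0.23 in AXL WT (adjusted p = 1.69e-04) and -1.57 ± 0.23 in AXL KO (adjusted p = 1.33e-04), with an interaction of -0.09 ± 0.32 (adjusted p = 0.866). With AXL WT hypoxia replicates 2 and 3 left out, the difference between genotypes in hypoxia was -0.95 and the hypoxia response of AXL WT cells -2.09.

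Psat1 (chr19:15904678-15947337, minus strand), the aminotransferase between them, differed less between groups than its neighbours in the route. Its libraries held 629.5, 625 and 742 CPM in AXL WT normoxia, 651, 449.9 and 486 in AXL WT hypoxia, 463, 484 and 406 in normoxic AXL KO and 552, 587 and 581 in hypoxic AXL KO. Normoxic AXL KO libraries were all below normoxic AXL WT libraries, and hypoxic AXL KO libraries were all above normoxic AXL KO libraries, while the hypoxic AXL WT libraries straddled both AXL KO groups. In normoxia Psat1 was lower in AXL KO by -0.56 ± 0.13 (adjusted p = 0.00347). In hypoxia the genotypes differed by 0.12 ± 0.13 (adjusted p = 0.472), a value that took the other sign when counts were scaled by library size alone (-0.05). Hypoxia gave 0.35 ± 0.13 in AXL KO (adjusted p = 0.0443) and -0.33 ± 0.13 in AXL WT (adjusted p = 0.0515), and the interaction was called at 0.68 ± 0.19 (adjusted p = 0.0204). The rise in AXL KO cells was no longer called when any 1 of the 6 AXL KO libraries was left out (adjusted p from 0.061 to 0.16), without a filter on low counts (0.33, adjusted p = 0.0723) or with scaling by library size alone (0.14, adjusted p = 0.403). The fall in AXL WT cells was called at -0.51 ± 0.10 (adjusted p = 7.16e-04) without AXL WT hypoxia replicate 1. Leaving out that library also made the difference between genotypes in hypoxia pass (0.30, adjusted p = 0.0171). Without AXL WT normoxia replicate 1 or 3, AXL KO normoxia replicate 3, or AXL KO hypoxia replicate 2 or 3, the interaction was not called (0.51 to 0.67, adjusted p from 0.0518 to 0.0921). With AXL WT hypoxia replicates 2 and 3 left out, the interaction was 0.37. The hypoxia response of AXL WT cells was then -0.02, and the difference between genotypes in hypoxia -0.19.

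Shmt2 (chr10:127517123-127522444, minus strand) encodes the mitochondrial enzyme that splits serine, and hypoxia lowered it more than any other of the 10 in AXL KO cells. It held 373, 349.8 and 416 CPM in AXL WT normoxia, 47.0, 52.5 and 58.6 in AXL WT hypoxia, 183, 167 and 119 in normoxic AXL KO and 20.9, 23.8 and 21.8 in hypoxic AXL KO. No library of one group overlapped that of another. The hypoxia responses were almost equal, -2.85 ± 0.16 in AXL WT (adjusted p = 1.10e-07) and -2.82 ± 0.16 in AXL KO (adjusted p = 1.71e-07), with an interaction of 0.03 ± 0.21 (adjusted p = 0.947). So were the differences between genotypes, -1.28 ± 0.15 in normoxia (adjusted p = 1.58e-05), against -1.25 ± 0.15 in hypoxia (adjusted p = 2.46e-05).

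Shmt1 (chr11:60788104-60811718, minus strand), the cytosolic counterpart, was high in 1 group. It held 38.5, 36.4 and 46.8 CPM in AXL WT normoxia and no more than 6.07 in any other library: 2.23, 2.62 and 2.62 in AXL WT hypoxia, 3.09, 6.07 and 3.41 in normoxic AXL KO and 1.26, 2.02 and 1.56 in hypoxic AXL KO. The normoxic difference between genotypes was -3.27 ± 0.26 (adjusted p = 6.36e-07), and the hypoxia response was -4.03 ± 0.27 in AXL WT (adjusted p = 4.16e-07) and -1.38 ± 0.26 in AXL KO (adjusted p = 8.47e-04). The 2 hypoxia responses differed by 2.65 ± 0.36 (adjusted p = 3.32e-04). In hypoxia the genotypes differed by -0.62 ± 0.27 (adjusted p = 0.0584), with no overlap of libraries, a state shared by 62.5% of all genes in that comparison. That difference passed under 6 alternatives, among them DESeq2 (-0.66, adjusted p = 0.0295) and the fit without AXL KO hypoxia replicate 2 (-0.81, adjusted p = 0.0385).

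Mthfd1 (chr12:76255298-76319803, plus strand), the cytosolic trifunctional enzyme that puts formate back on folate, was the 1 gene called higher without AXL in hypoxia. It held 70.4, 66.8 and 79.2 CPM in AXL WT normoxia, 19.7, 23.2 and 21.6 in AXL WT hypoxia, 39.3, 41.5 and 34.8 in normoxic AXL KO and 27.7, 29.7 and 29.6 in hypoxic AXL KO. The 4 groups did not overlap, and the order of the genotypes was turned round between normoxia and hypoxia. AXL KO was lower by -0.90 ± 0.11 in normoxia (adjusted p = 1.92e-05) but higher by 0.43 ± 0.11 in hypoxia (adjusted p = 0.00459). Hypoxia gave -1.74 ± 0.11 in AXL WT (adjusted p = 2.73e-07) and -0.41 ± 0.11 in AXL KO (adjusted p = 0.00693), and these responses differed by 1.34 ± 0.15 (adjusted p = 1.04e-04). The higher value in hypoxic AXL KO cells was not called with scaling by library size alone (0.27, adjusted p = 0.0591), with a quality weight per group in limma-voom (0.44, adjusted p = 0.116) or in a fit of the 6 hypoxia libraries alone (0.38, adjusted p = 0.0575).

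Mthfd1l (chr10:3973118-4167081, plus strand), the mitochondrial formate-releasing enzyme, was called higher in hypoxia in both genotypes. It held 115, 109 and 135 CPM in AXL WT normoxia, 164, 165 and 188 in AXL WT hypoxia, 74.7, 78.5 and 85.0 in normoxic AXL KO and 159.7, 166 and 158 in hypoxic AXL KO. Every hypoxic library lay above every normoxic one, and the hypoxic libraries of the genotypes overlapped. It rose by 0.53 ± 0.10 in AXL WT (adjusted p = 8.57e-04) and by 1.02 ± 0.10 in AXL KO (adjusted p = 8.05e-06). AXL KO was lower in normoxia by -0.59 ± 0.10 (adjusted p = 3.18e-04), and in hypoxia the difference was -0.10 ± 0.10 (adjusted p = 0.417). The interaction of 0.50 ± 0.14 (adjusted p = 0.0228) was not called without AXL WT normoxia replicate 1 or 3, AXL KO normoxia replicate 1 or 2, or AXL KO hypoxia replicate 2 (0.32 to 0.49, adjusted p from 0.0534 to 0.132), nor with all libraries under a quality weight per group in limma-voom (0.49, adjusted p = 0.0691). With scaling by library size alone, which moved the median of all genes to -0.318 in that contrast, the rise in AXL WT cells was 0.24 (adjusted p = 0.084).

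Because hypoxia raised Mthfd1l and lowered Shmt2 in both genotypes, the sequence before both starts is shown, from RefSeq on GRCm38.p6, as the 250 bases before the annotated start, 5′ to 3′ on the gene's strand, with ACGTG, the core of the element bound by hypoxia-inducible factors, in capitals on either strand (CACGT where it lies on the other strand). The Mthfd1l stretch is chr10:3972825-3973074 on the plus strand and the Shmt2 stretch is chr10:127522445-127522694 on the minus strand.
Mthfd1l: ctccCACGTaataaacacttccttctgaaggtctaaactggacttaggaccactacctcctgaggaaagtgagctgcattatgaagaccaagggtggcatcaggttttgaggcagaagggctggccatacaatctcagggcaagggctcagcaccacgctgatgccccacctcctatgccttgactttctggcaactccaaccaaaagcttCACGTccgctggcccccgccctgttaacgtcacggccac
Shmt2: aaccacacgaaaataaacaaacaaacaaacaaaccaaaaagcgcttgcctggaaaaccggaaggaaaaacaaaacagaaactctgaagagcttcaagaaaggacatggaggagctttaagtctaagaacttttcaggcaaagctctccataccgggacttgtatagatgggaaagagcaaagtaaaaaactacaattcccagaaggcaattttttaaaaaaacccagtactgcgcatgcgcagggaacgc
Mthfd1l held ACGTG at 2 places, beginning 246 and 39 bases before the start, and Shmt2 held none. RefSeq windows of 300 bases (250 before to 50 after the start) matched 9 of the 10 genes, all but Aldh1l2, with 2 windows for Psat1. ACGTG also occurred in windows of Psph and Psat1, so in 3 of 10 windows, where 19.6% of 32851 windows of all genes held it. Of these genes, Mthfd1l rose and Psph fell with hypoxia in both genotypes, and Psat1 was called higher in AXL KO cells only. The ATF4 and CHOP composite letters TGATGNAA occurred in 0 windows of the 9 genes (3.97% of all windows), the E-box CACGTG, which contains ACGTG and is bound by MYC, in 0 (7.15%), and the antioxidant response letters TGACNNNGC in those of Phgdh and Psph (12.4%). Both strands were searched. A match describes the letters only, and none of these windows was measured for binding.

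Mthfd2 (chr6:83305691-83325908, minus strand), the mitochondrial dehydrogenase that supplies MTHFD1L, responded to oxygen and was not called between genotypes. It held 123, 114 and 151 CPM in AXL WT normoxia, 37.7, 43.1 and 40.3 in AXL WT hypoxia, 122, 114 and 89.3 in normoxic AXL KO and 44.0, 43.7 and 45.4 in hypoxic AXL KO. Normoxic libraries of both genotypes overlapped, and all hypoxic libraries were below them. Hypoxia lowered it by -1.68 ± 0.14 in AXL WT (adjusted p = 1.34e-06) and -1.29 ± 0.13 in AXL KO (adjusted p = 1.12e-05). The genotypes differed by -0.25 ± 0.13 in normoxia (adjusted p = 0.118), against 0.14 ± 0.13 in hypoxia (adjusted p = 0.389), and the interaction was 0.39 ± 0.19 (adjusted p = 0.142). The normoxic difference was called with scaling by library size alone (-0.51, adjusted p = 0.00627) and with a quality weight per group (-0.26, adjusted p = 0.0364).

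Aldh1l2 (chr10:83487450-83534140, minus strand), the mitochondrial formyl-folate dehydrogenase, was lowered by hypoxia chiefly in AXL KO cells. It held 316, 311 and 299.6 CPM in AXL WT normoxia, 219, 253 and 271 in AXL WT hypoxia, 486, 299 and 306 in normoxic AXL KO and 131, 124 and 121 in hypoxic AXL KO. The first AXL KO normoxia library stood above all others, and the hypoxic AXL KO libraries lay below every other library. In hypoxia AXL KO was lower by -0.98 ± 0.16 (adjusted p = 2.69e-04), and in normoxia the difference was 0.24 ± 0.16 (adjusted p = 0.23). The response to hypoxia was -1.54 ± 0.17 in AXL KO (adjusted p = 1.44e-05) and -0.32 ± 0.16 in AXL WT (adjusted p = 0.111), and the 2 differed by -1.22 ± 0.23 (adjusted p = 0.00255). The AXL WT value was called with scaling by library size alone (-0.61, adjusted p = 0.00916).

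**Figure D3:**
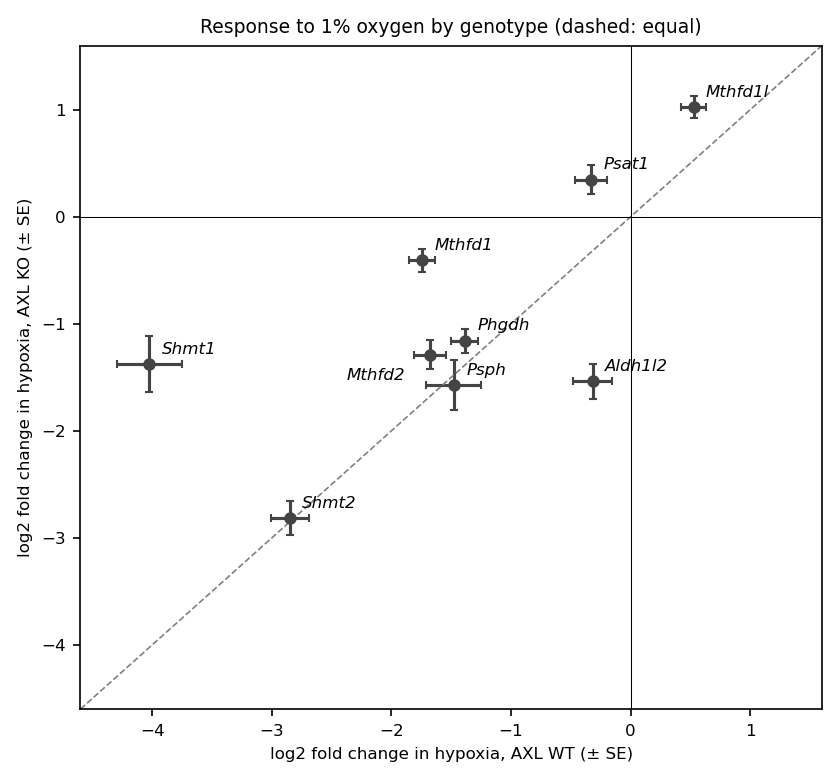
Log2 response to hypoxia in AXL WT cells (x axis) against that in AXL KO cells (y axis) for 9 enzymes without Gldc, with standard errors as bars and the line of equal responses. Shmt2, Psph and Phgdh lie near the line, Shmt1 and Mthfd1 lie above it and Aldh1l2 below it.

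Gldc (chr19:30098449-30175418, minus strand), the decarboxylase of glycine cleavage, was close to the limit of detection. It had 11, 8 and 16 counts in AXL WT normoxia, 10, 43 and 47 in AXL WT hypoxia, 0, 1 and 0 in normoxic AXL KO and 0, 1 and 1 in hypoxic AXL KO, at most 1.01 CPM. All AXL KO libraries had fewer counts than any AXL WT library. The summed counts per depth were 35.8 times higher in AXL WT than in AXL KO in normoxia (95% counting interval 6.02 to 1450) and 48.2 times higher in hypoxia (13.0 to 404), intervals that cover counting error only. These ratios rest on 1 and 2 counts in AXL KO and are a description, since the gene passed the filter through AXL WT libraries alone. With AXL WT hypoxia replicates 2 and 3 left out, the fitted log2 difference between genotypes in hypoxia, whose size depends on the prior count, was -3.67 against -5.38. Hypoxic AXL WT cells had 3.52 times the normoxic level (2.37 to 5.33), called at a log2 value of 1.81 (adjusted p = 0.0135), but the groups overlapped. It was not called with a quality weight per group in limma-voom (1.55, adjusted p = 0.0797). Nor was it called without AXL WT normoxia replicate 1 or 2 or AXL WT hypoxia replicate 3 (1.55 to 1.80, adjusted p from 0.0501 to 0.0608). Since the filter kept the gene through AXL WT libraries, this value is a description too. With replicates 2 and 3 of AXL WT hypoxia left out the log2 value was 0.10. Of the other glycine cleavage genes, the lipoyl carrier Gcsh was lower in AXL KO both in normoxia (-1.43 ± 0.23, adjusted p = 2.05e-04) and under hypoxia (-1.03 ± 0.23, adjusted p = 0.00241). The aminomethyltransferase Amt was also called lower in AXL KO in both conditions. It had 2.22 ± 0.20 CPM in normoxic and 5.96 ± 0.56 in hypoxic AXL KO, against 8.69 ± 0.36 and 8.68 ± 1.52 in AXL WT. Within AXL KO cells Amt rose with hypoxia (1.42 ± 0.17, adjusted p = 2.55e-05). Dld, the subunit shared with other dehydrogenases, passed in 1 contrast, hypoxia in AXL KO cells (-0.35, adjusted p = 0.03).

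Ratios within a library do not depend on its scaling, and they set the mitochondrial enzyme against its cytosolic or minor counterpart. Per length, Shmt2 exceeded Shmt1 by a log2 ratio of 3.55 ± 0.07 in AXL WT normoxia (SD, n = 3), 4.72 ± 0.08 in AXL WT hypoxia, 5.58 ± 0.56 in normoxic AXL KO and 4.12 ± 0.24 in hypoxic AXL KO. The ratio was therefore higher in hypoxia than in normoxia in AXL WT libraries and lower in AXL KO libraries, with no overlap in either. Mthfd1l exceeded Mthfd1 by 0.73 ± 0.04, 3.0 ± 0.15, 1.05 ± 0.21 and 2.47 ± 0.06 in the same order of groups, higher in all hypoxic libraries than in all normoxic ones. Mthfd2 exceeded Mthfd2l, its close relative, by 3.28 ± 0.19, 1.45 ± 0.6, 4.02 ± 0.15 and 2.07 ± 0.09. In hypoxia AXL KO differed from AXL WT by -0.6, -0.53 and 0.62 in the 3 ratios, each with an exact two-sided permutation p = 0.1, the smallest that 3 against 3 libraries can give, so none can pass 0.05. Without AXL WT hypoxia replicate 1 the Mthfd2 to Mthfd2l difference was 0.29.

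**Figure D4:**
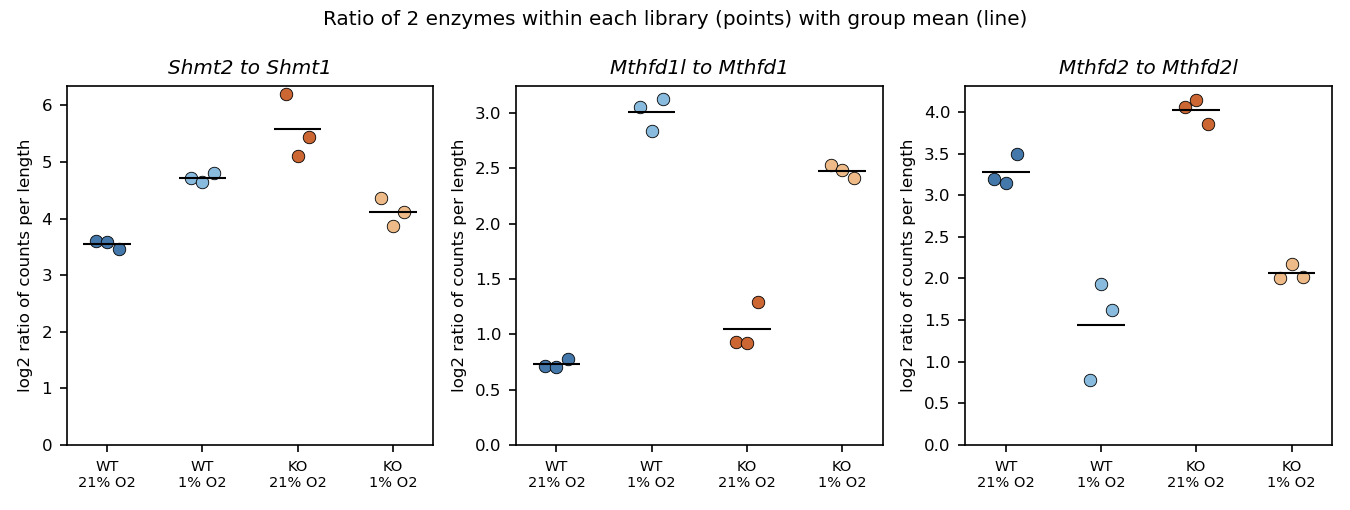
Log2 ratio per length of Shmt2 to Shmt1, Mthfd1l to Mthfd1 and Mthfd2 to Mthfd2l in each library (points) with the group mean (line). The Mthfd1l to Mthfd1 ratio lies between 0.71 and 1.29 in the normoxic libraries and between 2.42 and 3.12 in the hypoxic ones.

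Across the rest of folate metabolism, 6 of 13 tested genes were lower and 2 higher in AXL KO in normoxia, and 5 were lower and 3 higher in hypoxia. Among all genes, 30.0% were lower and 29.7% higher in normoxia, and 33.0% and 29.9% in hypoxia, so the hypoxic counts were near those shares. Thymidylate synthase, Tyms, had 53.5 ± 3.25 CPM in AXL WT normoxia, 8.29 ± 2.83 in AXL WT hypoxia, 10.3 ± 2.47 in normoxic AXL KO and 2.73 ± 0.33 in hypoxic AXL KO, and was lower in AXL KO by -2.37 ± 0.25 in normoxia (adjusted p = 5.56e-06), against -1.60 ± 0.25 in hypoxia (adjusted p = 1.80e-04). Aldh1l1, the cytosolic form of Aldh1l2, was scarce, with a mean of 3.18 CPM in AXL WT normoxia and under 0.1 in both hypoxic groups. Ggh, which trims the glutamate tail of folates, went the other way: it had 29.7 ± 1.08 and 33.4 ± 1.89 CPM in normoxic and hypoxic AXL KO cells and 0.0244 and 0.0749 in the AXL WT groups. The reduced folate carrier Slc19a1 was higher in AXL KO in hypoxia (1.67 ± 0.24, adjusted p = 8.49e-05), and the mitochondrial folate carrier Slc25a32 fell with hypoxia in AXL WT (-1.55 ± 0.13, adjusted p = 1.89e-06) and AXL KO cells (-1.08 ± 0.13, adjusted p = 3.35e-05).

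Among carriers of serine and related amino acids, 5 of 8 tested were higher and 1 lower in AXL KO in normoxia, and 4 higher and 0 lower in hypoxia. Of all genes, 29.7% were higher and 30.0% lower in normoxia, and 29.9% and 33.0% in hypoxia. Slc38a1, a neutral amino acid carrier, had 263 ± 20.3 and 338 ± 7.97 CPM in AXL KO normoxia and hypoxia, against 0.907 and 1.31 in AXL WT. Slc1a4, which carries alanine, serine and cysteine, had 158 ± 12.5 and 147 ± 10.4 CPM in AXL KO against 63.5 ± 7.64 and 45.7 ± 12.6 in AXL WT, and was called higher in both conditions. Sfxn1, which carries serine into mitochondria, was higher in AXL KO by 1.21 ± 0.27 in normoxia (adjusted p = 0.00225), against 1.88 ± 0.28 in hypoxia (adjusted p = 1.20e-04), and fell with hypoxia in both genotypes. Hypoxia raised Slc38a2 in both, by 1.45 ± 0.25 in AXL WT (adjusted p = 4.59e-04) and 1.51 ± 0.25 in AXL KO (adjusted p = 3.63e-04).

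Of 13 genes of purine synthesis, which takes carbon units from formyl-folate, 8 were lower and 1 higher in AXL KO in normoxia, and 4 lower and 4 higher in hypoxia. Among all genes, 30.0% were lower and 29.7% higher in normoxia, and 33.0% and 29.9% in hypoxia, so the purine counts in hypoxia were near those shares. Hypoxia lowered 9 and raised 2 in AXL WT cells (30.7% and 29.2% of all genes), and lowered 6 and raised 2 in AXL KO cells (30.6% and 27.3%). Atic, which uses formyl-folate in the last steps of the route, fell with hypoxia by -2.23 ± 0.12 in AXL WT (adjusted p = 7.38e-08) and -0.71 ± 0.11 in AXL KO (adjusted p = 2.19e-04), with a difference between the responses of 1.52 ± 0.16 (adjusted p = 5.73e-05). Paics rose, as Mthfd1l did, by 0.36 ± 0.12 in AXL WT (adjusted p = 0.0187) and 0.84 ± 0.12 in AXL KO (adjusted p = 9.76e-05). Of 8 tested genes of the methionine cycle and transsulfuration, 5 were lower and 0 higher in AXL KO in normoxia (30.0% and 29.7% of all genes). In hypoxia 4 were lower and 3 higher (33.0% and 29.9%). Methionine synthase, Mtr, which takes the methyl group from folate, was lower in AXL KO by -1.59 ± 0.15 in normoxia (adjusted p = 3.04e-06), against -1.56 ± 0.16 in hypoxia (adjusted p = 5.00e-06).

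The transcription factors known to act on these enzymes did not share 1 pattern. Atf4 had 447 ± 65.5 CPM in AXL WT normoxia, 569 ± 235 in AXL WT hypoxia, 427 ± 58.3 in normoxic AXL KO and 198 ± 20.4 in hypoxic AXL KO. Its difference between genotypes was -0.07 ± 0.23 in normoxia (adjusted p = 0.819), where Phgdh, Psph and Shmt2 were lower in AXL KO, and -1.52 ± 0.24 in hypoxia (adjusted p = 1.61e-04). Myc, another activator of the pathway, differed by -0.10 ± 0.15 in normoxia (adjusted p = 0.61), against -1.14 ± 0.16 in hypoxia (adjusted p = 8.02e-05), and fell with hypoxia by -2.17 ± 0.16 in AXL WT (adjusted p = 7.74e-07) and -3.21 ± 0.17 in AXL KO (adjusted p = 1.21e-07). Ddit3 (CHOP) was higher in AXL KO in normoxia, at 171 ± 48.6 CPM against 30.3 ± 4.06 in AXL WT (adjusted p = 3.30e-05). Atf5 had 370 ± 12.3 CPM in AXL WT normoxia, 112 ± 25.6 in AXL WT hypoxia, 273 ± 36.9 in normoxic AXL KO and 49.3 ± 2.51 in hypoxic AXL KO. Its group means had the same order as those of Shmt2. Nfe2l2 had another order, with means of 151, 195, 172 and 156 CPM in the groups as listed for Atf5. Transcript levels of ATF4 do not report its translation, which is where the factor is known to be controlled.

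Of 16 other known ATF4 targets, 11 were higher and 3 lower in AXL KO in normoxia, and 7 higher and 6 lower in hypoxia, where 29.7% of all genes were higher and 30.0% lower in normoxia and 29.9% and 33.0% in hypoxia. Asns, which makes asparagine, had 422 ± 28.7 CPM in AXL WT normoxia, 124 ± 19.2 in AXL WT hypoxia, 202 ± 41.9 in normoxic AXL KO and 15.1 ± 1.53 in hypoxic AXL KO. The cystine carrier Slc7a11 had 103 ± 14.7, 11.3 ± 2.67, 40.5 ± 15.2 and 0.398 ± 0.154 CPM in the same order, so both had the same order of group means as Shmt2. Stc2 and Vldlr went the other way, with Stc2 higher in AXL KO by 2.89 ± 0.17 in normoxia (adjusted p = 4.41e-08), against 3.83 ± 0.17 in hypoxia (adjusted p = 6.35e-09).

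Several of the enzymes were lower in contrasts in which cell cycle genes were lower too. All 12 on the list were lower in AXL KO in normoxia, and all 12 fell with hypoxia in AXL WT cells, with medians of -2.1 and -2.07 on the log2 scale. Among all genes, 30.0% and 30.7% were lower in these contrasts. The summed level of the 12 cell cycle genes was 2250 to 2410 CPM in AXL WT normoxia and 526 to 650, 419 to 591 and 461 to 611 in AXL WT hypoxia, AXL KO normoxia and AXL KO hypoxia. Hypoxia changed 5 of them in AXL KO cells (2 higher, 3 lower), where 27.3% of all genes were higher and 30.6% lower. A called interaction above 0 was found in 11 of the 12, against 13.5% of all genes. Shmt1, Mthfd1 and Psat1 likewise had their highest mean in AXL WT normoxia and a called interaction above 0. The Psat1 means lay closer together, at 665, 529, 451 and 573 CPM in the same order of groups. Mthfd1l also had a called interaction above 0 but was highest in hypoxic cells. Shmt2 fell by -2.82 with hypoxia in AXL KO cells, and Shmt1 and Mthfd1 were also called lower there. The median log2 difference of the 12 cell cycle genes in that contrast was 0.08. The part of proliferation in the enzyme levels was not tested.

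Likeness of pattern was measured as Pearson's r of log2 CPM over the 12 libraries, among 9230 genes with a mean of at least 10 CPM, as a description, since libraries of a group are alike. The genes most like Shmt1 were Pclaf (0.992), Pole (0.991) and Pbk (0.99), and those most like Psph were Exosc2 (0.994), Nol11 and Nme1 (both 0.993). Shmt2 was most like Syncrip (0.993), Ssb (0.99) and Tbl3 (0.988), and Aldh1l2 was most like Manf (0.978), Sec23b (0.96) and Rps6kb1 (0.959). Psat1 had no gene above 0.949, the value for Dcaf15. Among the 10 enzymes the closest pairs were Phgdh with Psph (0.963), Phgdh with Shmt1 (0.935) and Phgdh with Shmt2 (0.934), and Mthfd1l stood opposite Mthfd2 (-0.782) and Aldh1l2 (-0.674).

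The interaction of genotype and oxygen was called in 5 of the 10 enzymes, 4 above 0 and 1 below, where 28.8% of all genes were called, 13.5% above 0 and 15.3% below. Psat1, Shmt1, Mthfd1 and Mthfd1l were above 0, that is, less lowered or more raised by hypoxia in AXL KO than in AXL WT cells, and Aldh1l2 was below. The count was 3 without AXL WT normoxia replicate 1, without AXL WT normoxia replicate 3 or without AXL KO hypoxia replicate 2, when Psat1 and Mthfd1l were no longer called. Calls over all genes fell in these fits too, to 3690 of 17457, 3670 of 17460 and 3746 of 17494, against 4830 of 16767 with all libraries.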

How the data were processed

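RNA of 12 libraries was counted by the authors. Per the submitters' processing notes, reads were checked with FastQC 0.11.5, aligned with STAR 2.5.1b to GRCm38 and counted with featureCounts 1.4.6, and DESeq2 1.12.3 was used; per the file headers the counter was featureCounts 1.6.0 with Ensembl release 93. The deposited values are raw counts per gene: per the file headers, read pairs with both ends mapped, reverse stranded (setting 2), without chimeric pairs. Groups come from the sample titles, which the genotype tag contradicts in 6 libraries.

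Counts were fitted with edgeR 4.0.16 in R 4.3.3: filterByExpr (16767 of 54232 genes kept, with all 10 enzymes among them), TMM scaling, robust quasi-likelihood, 1 mean per group over 12 libraries (8 residual degrees of freedom) and Benjamini-Hochberg adjustment over all genes tested. Every adjusted p is from this test unless another tool is named. Standard errors are the absolute log2 difference over the square root of F. RPKM divides CPM by the exon length in the files. Ratios used a pseudocount of 0.5 counts. The fit was run on simulated counts with the same spread in every group, so that run cannot judge it at the unequal spread of these groups. Symbols matched 54079 genes, and 153 had none. Alternatives were RLE factors, library size alone, no filter or at least 5 CPM in 3 libraries, DESeq2 1.42.0, limma-voom 3.58.1 with and without group weights, a replicate block, fits of 6 libraries, a pseudocount of 5 and libraries left out.

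The genes, lists and tests were chosen with earlier results of these data known. Named beside the 10 enzymes were Axl, markers, the 3 genes most alike and, from each list, genes fixed by a written rule.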

Additional observations from a re-analysis of the deposited data

Results flagged for a closer look

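In 5 of the 10 enzymes (28.8% of all genes) the response to hypoxia differed between the genotypes by a called interaction in edgeR, given as the response in AXL KO minus that in AXL WT on the log2 scale. The difference was 2.65 for Shmt1, 1.34 for Mthfd1, 0.68 for Psat1 and 0.50 for Mthfd1l. For Aldh1l2 it was -1.22. Shmt1, Mthfd1 and Aldh1l2 were called under each alternative run. Psat1 and Mthfd1l were not called without some single libraries, and Mthfd1l was not called with a quality weight per group in limma-voom (0.49, adjusted p = 0.0691). Of the cell cycle list, 11 of 12 genes also had a called interaction above 0 (13.5% of all genes). With hypoxia in AXL KO cells the median log2 difference of that list was 0.08, whereas Shmt1 and Mthfd1 were called lower. The part of the cell cycle in these results was not tested. The AXL WT hypoxia libraries, which enter each of these values, varied more among themselves than those of the other groups. With replicates 2 and 3 of that group left out, a single library remained there, so a call in that fit cannot measure that spread. The differences were then 2.80 for Shmt1, 1.45 for Mthfd1, 0.37 for Psat1, 0.56 for Mthfd1l and -1.05 for Aldh1l2.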

How the results depend on the processing

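Over 50 gene results (10 enzymes in 5 contrasts) and 843 values under alternatives, 800 kept their side of the threshold, 29 were no longer called, 14 became called and 0 called values changed sign. Among the 800, 19 values in 6 results changed sign but were called in neither setting. Between genotypes 5 to 7 enzymes were called in hypoxia and 7 to 9 in normoxia, and between oxygen levels 7 to 9 in AXL WT and 8 to 9 in AXL KO. In the same order, 63.0%, 59.7%, 59.8% and 58.0% of all genes were called in the main fit. With only the 6 libraries compared, 5 of 10 enzymes were called between genotypes in hypoxia, against 7696 of 15216 genes. In normoxia that setting called 7 of 9 enzymes tested, against 12610 of 15866 genes. Leaving out 1 library at a time gave 3 to 5 called interactions, against 5 with all libraries, where 28.8% of all genes were called. Over all genes those fits called from 3582 of 17502 to 8417 of 17493. Scaling by library size alone moved the medians of all genes to between -0.318 and 0.065. With group weights in limma-voom the fit called 8204 genes between genotypes in hypoxia and 12913 in normoxia, so the wide spread of AXL WT hypoxia libraries limits the first. In AXL KO cells Gldc is limited by depth.

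The replicate numbers did not pair the libraries: deviations of 18 same-numbered pairs correlated at -0.065 to 0.142, with 2 over 0.1, and 5 of 18 were highest for their own number. With the replicate block the counts called were 7, 8, 8, 8 and 5, against 6, 8, 8, 9 and 5 without it, in the order of contrasts genotype in hypoxia, genotype in normoxia, hypoxia in AXL WT, hypoxia in AXL KO and interaction. Among all 16767 genes the block called 10425, 9915, 9875, 9582 and 4521, against 10557, 10009, 10035, 9719 and 4830 without it. Psat1 in hypoxic against normoxic AXL KO lost its call under the block (0.35, adjusted p = 0.0623), and Shmt1 between genotypes in hypoxia gained one (-0.64, adjusted p = 0.0356).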
